A study of Homo sapiens with 12 samples.

Results

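ZNF723 is a gene for a zinc finger protein in a cluster of related genes on chromosome 19p12, and it had no counts in wild-type human embryonic stem cells while it was detected in every library of cells without UBQLN1. The 10 genes described here are ZNF723 and 9 zinc finger genes near it, ZNF99, ZNF728, ZNF730, ZNF724, ZNF91, ZNF675, ZNF681, ZNF726 and ZNF254, out of 28278 genes in the count table. They were chosen by name as neighbours of ZNF723, and ZNF723 itself was chosen for its counts in WT and KO cells. The comparison of KO with WT therefore describes ZNF723 and its neighbours without a test, and the 10 genes are tested only in comparisons among KO cells. All 10 genes passed the filter on low counts. ZNF723 could pass only through the KO libraries, so its passing says nothing more than the choice did.

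RNA-sequencing of WA26, an established human embryonic stem cell (hESC) line, compared WT cells with UBQLN1 KO cells. UBQLN1 encodes an adaptor that carries ubiquitinated proteins to the proteasome. The 8 libraries were 2 of WT and 2 of KO cells at normal O2 with no treatment named in the labels, 2 of KO cells at 5% O2 and 2 of KO cells with NAC (N-acetyl-L-cysteine, an antioxidant). The KO was made with CRISPR/Cas9 and guide pairs, the study describes more than 1 clone of each genotype, and the labels do not say which clone gave which library, so a trait of 1 clone and an effect of the genotype cannot be told apart. Treated WT samples, at 5% O2 or with NAC, are not analysed here, and no treatment could be compared between genotypes. The paper describes NAC over repeated passages with DMSO as control. Its text and its figure scheme give different culture times at 5% O2 before RNA-seq. The sample titles name neither time nor vehicle, so a treatment and the length of culture cannot be told apart. The p-values measure the spread between 2 libraries a group, which may be partly technical.

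KRAB zinc finger proteins hold a row of C2H2 zinc fingers, each of which contacts a few bases of DNA, and a KRAB domain that recruits the corepressor TRIM28. TRIM28 in turn brings enzymes that deposit repressive histone and DNA methylation, and in pluripotent cells many of these proteins bind and silence transposable elements. The genes of the 19p12 cluster arose by repeated duplication in primates, so their sequences are close to each other. ZNF91 is known for repression of SVA retrotransposons, and ZNF675 also for inhibition of TRAF6 signalling.

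The libraries held from 31236968 to 41639350 counts. UBQLN1 had 7382 and 7591 counts in WT, 1559 and 1789 in KO, 2116 and 1530 in KO at 5% O2, and 2392 and 1476 in KO with NAC, so that all KO libraries were below both WT libraries. All 12 markers of pluripotent stem cells had more than 10 counts in every library, and from 4 to 7 of the 14 markers of differentiated lineages did. NAC replicate 1 stood apart. All 14 of the 14 markers of fibroblasts and mesenchymal cells were highest in it, and their summed level was 1170 CPM (counts scaled to a common library size) there against 533 to 646 CPM in the other 7 libraries. Its defining markers DCN, COL3A1 and LUM had 1809, 1114 and 148 counts in that library. In the other 7 libraries DCN and LUM had 0 counts and COL3A1 had 0 to 8. The part of these transcripts in the results with NAC was not tested, and counts of calls with NAC, and the fold changes over untreated KO of those of the 10 genes that were called, are given with and without that library.

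The 10 genes lay within 1.38 Mb of chromosome 19 (hg38, GENCODE release 44 annotation, chr19:22752183-24129968). ZNF723 (ENSG00000268696) was annotated on the plus strand at chr19:22832291-22858667 with 4 exons, as were all its neighbours. ZNF99 started on the side of the short arm's end, at -48.1 kb from the start of ZNF723. The other 8 started on the centromeric side, from 170.9 kb away for ZNF728 to 1201.1 kb away for ZNF254. The finger pattern, 2 cysteines with 2 residues between them and 2 histidines with 3 residues between them, joined by 12 residues, occurred 12 times in the translated coding sequence of ZNF723, which is 513 codons long. In the neighbours it occurred from 10 times in ZNF730 to 31 times in ZNF91, whose coding sequence of 1191 codons was the longest.

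Near-identical sequence limits what can be counted here. Of the 31-base words in the canonical transcript of ZNF723, 35.15% occurred at another place on the primary chromosomes, and 19.24% occurred on alternate scaffolds of the same genome build. Among the 10 genes, repeated words on primary chromosomes made up from 15.74% in ZNF681 to 39.24% in ZNF91, and alternate scaffolds held from 5.59% in ZNF254 to 19.26% in ZNF728. Reads from such stretches can be dropped or shared between genes by the counting, so levels are uncertain to that degree. The counting ignored strand by default. Each of 9 genes, all but ZNF681, also overlapped, introns included, pseudogenes or other genes of the annotation that had no row in the count table. Overlap of exons was not checked. Where exons overlap, reads of a gene on the other strand cannot be told apart from those of the zinc finger gene.

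The start regions of the genes showed how close the duplicates are to each other. RefSeq (GRCh38.p14) gave promoter windows, 250 bases before to 50 bases after the start, for 8 of the 10 genes, and ZNF728 and ZNF99 were not in that table. The window of ZNF254 lay inside the GENCODE gene, which began at chr19:24033405. That of ZNF730 (chr19:23116775-23117074) also lay inside its gene, which began at chr19:23075210. For these genes the RefSeq start is thus another start than the one used for the distances. Against the window of ZNF723, the other 7 windows were from 75.2% to 81.6% identical over their aligned bases. The longest word present in all 8 windows on the strand of transcription had 12 bases, GGCTTCCGGGAT, and was found by a search after the windows were read. The windows of ZNF723, of ZNF681, the neighbour with the highest correlation with it over all 8 libraries, and of ZNF675 and ZNF254, which had the lowest adjusted p-values with NAC, are shown 5′ to 3′ along the direction of transcription, with this word in capitals.
ZNF723 (chr19:22832041-22832340, plus strand): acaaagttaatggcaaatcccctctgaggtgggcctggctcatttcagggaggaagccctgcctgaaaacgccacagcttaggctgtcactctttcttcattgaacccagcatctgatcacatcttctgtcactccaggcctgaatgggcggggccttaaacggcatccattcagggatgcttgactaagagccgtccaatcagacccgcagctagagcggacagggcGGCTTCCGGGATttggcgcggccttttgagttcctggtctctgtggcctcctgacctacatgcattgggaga
ZNF681 (chr19:23758842-23759141, minus strand): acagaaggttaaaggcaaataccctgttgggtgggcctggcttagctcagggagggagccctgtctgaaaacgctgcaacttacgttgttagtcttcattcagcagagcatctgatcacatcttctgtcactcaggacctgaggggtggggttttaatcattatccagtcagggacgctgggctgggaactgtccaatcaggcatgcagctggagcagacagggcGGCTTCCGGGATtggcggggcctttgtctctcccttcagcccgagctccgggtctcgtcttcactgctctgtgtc
ZNF675 (chr19:23687163-23687462, minus strand): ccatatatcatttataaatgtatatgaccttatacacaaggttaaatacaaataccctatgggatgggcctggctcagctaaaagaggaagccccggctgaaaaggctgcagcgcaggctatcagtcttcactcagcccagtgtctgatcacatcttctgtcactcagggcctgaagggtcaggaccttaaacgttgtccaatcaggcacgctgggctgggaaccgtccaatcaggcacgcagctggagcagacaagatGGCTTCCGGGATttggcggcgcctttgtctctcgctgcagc
ZNF254 (chr19:24086937-24087236, plus strand): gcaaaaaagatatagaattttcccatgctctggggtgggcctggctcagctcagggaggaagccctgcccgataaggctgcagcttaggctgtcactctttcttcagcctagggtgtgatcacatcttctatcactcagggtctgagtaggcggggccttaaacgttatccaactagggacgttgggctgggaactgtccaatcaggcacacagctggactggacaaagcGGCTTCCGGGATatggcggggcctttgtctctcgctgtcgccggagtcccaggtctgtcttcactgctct

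The word began at position -22 in ZNF723 and at -25 in ZNF681, counted from the RefSeq start, and at -20 in ZNF254, while in ZNF675 it began 9 bases after the start. Of all 27305 promoter windows of the table, 25 (0.0916%) held the word on either strand. These were the 8 genes, 6 of the 19 other 19p12 zinc fingers with a window, and 11 genes elsewhere, of which 7 had names beginning with ZNF. The word contains the core of an ETS site, TTCCGG, so the presence of TTCCGG in 8 of the 8 windows follows from the choice of the word. TTCCGG was in 15 of the 19 other 19p12 windows and in 17.6% of all windows. CCAAT was in 8 of the 8 and in 19 of the 19 others, against 35.7% of all windows. The GC box letters GGGCGG were in 6 of the 8 and 15 of the 19, against 44.6%. TATAAA was in 1 of the 8, that of ZNF675, and in 2 of the 19, against 12%. Each motif was searched on both strands. The windows descend from common ancestors, so shared letters are not independent between them, and no binding was measured.

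ZNF723 was not detected in WT at this depth and was detected in all KO libraries. It had 0 counts in both WT libraries, 136 and 183 counts in KO, 179 and 112 in KO at 5% O2, and 236 and 260 in KO with NAC. In CPM this was 3.69 and 4.44 CPM in KO, 4.39 and 3.49 CPM at 5% O2 and 6.16 and 8.68 CPM with NAC. Every KO library was thus far above both WT libraries, both libraries with NAC were above the other 4 KO libraries, and KO at 5% O2 overlapped KO at normal O2. A floor of 3 counts per WT library was used (0.0899 CPM in the shallower one). Against it, the lowest library of each group was 41.0-fold higher in KO, 38.8-fold higher at 5% O2 and 68.5-fold higher with NAC. These bounds take every count as a separate fragment. Many fragments may have been counted once for each mate, and the bounds would then be lower. The floor covers counting error only, and in bulk RNA more cells with the transcript and more transcript per cell cannot be told apart. With NAC, the bound rested on replicate 1, and it was 96.4-fold without that library.

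ZNF723 was chosen for this pattern, so its place among genes of the same pattern is only described, and nothing is read from it. Of 9013 genes with 0 counts in both WT libraries, 3 had at least 10 counts in each of the 6 KO libraries. These were ZNF723 with at least 112 counts, VSIG1, a gene for a junctional adhesion protein, with at least 16, and CCDC125 with at least 10, the last 2 named after their values were seen.

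Per transcript length, ZNF723 was at a low to middle level among the 10 genes in the KO groups. Its level was 2.18 ± 0.288 RPKM (SD, n = 2) in KO, 2.11 ± 0.341 RPKM at 5% O2 and 3.98 ± 0.957 RPKM with NAC. Among the 10 genes this was ninth from the top in KO, eighth at 5% O2 and sixth with NAC. ZNF254 was at the top in every group, from 7.42 ± 0.229 RPKM in KO to 13.9 ± 1.62 RPKM with NAC. ZNF99 was at the bottom in the KO groups, at 0.416 to 0.491 RPKM. In KO, ZNF726 (2.34 ± 0.137 RPKM) and ZNF730 (2.31 ± 0.164 RPKM) were next above ZNF723, and their spreads overlapped that of ZNF723.

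**Figure D1:**
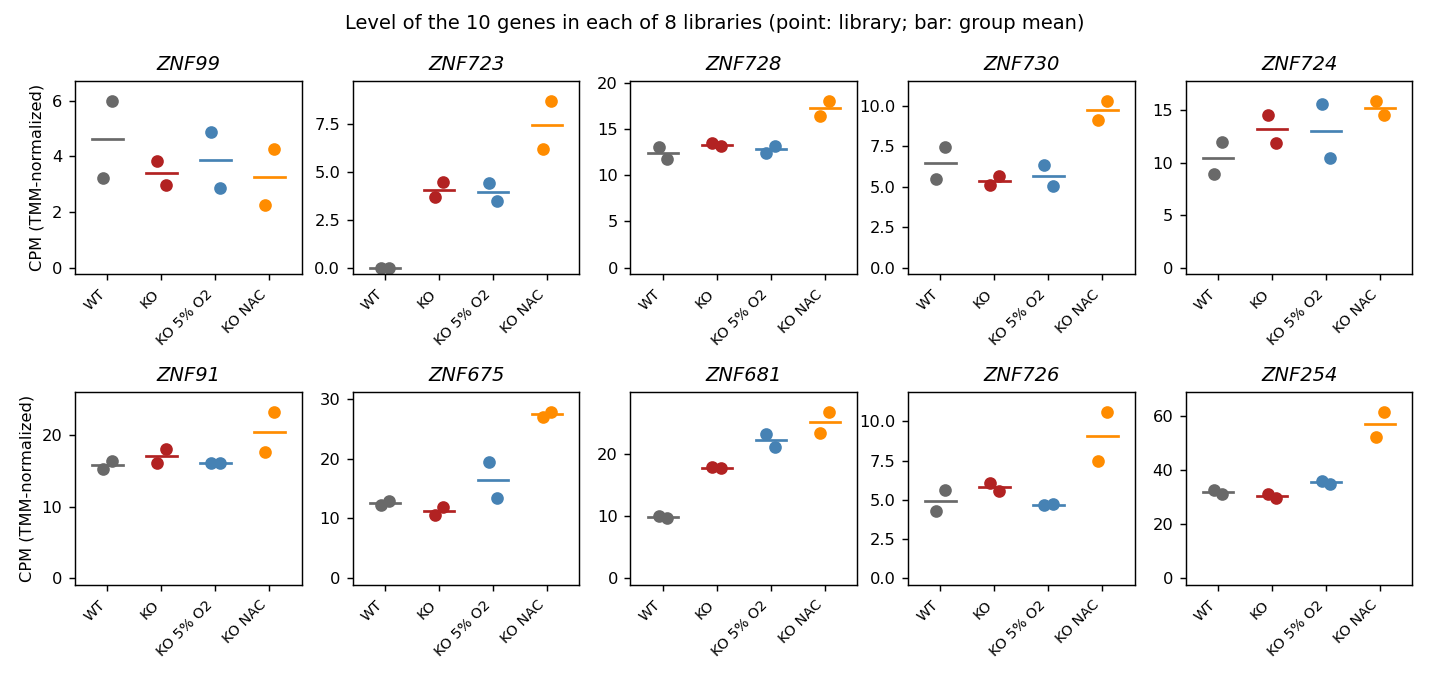
Level of each of the 10 genes (vertical axes, CPM after TMM normalization) in WT, KO, KO at 5% O2 and KO with NAC, 1 point per library and a bar at the mean of 2 libraries. ZNF723 is at 0 CPM in both WT libraries and at 3.49 CPM or more in every KO library, ZNF681 is also lower in WT than in KO, and the other 8 genes differ between WT and KO by -0.45 to 0.33 on the log2 scale.

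The neighbours of ZNF723 were already on in WT cells. Their lowest WT library ran from 108 counts for ZNF99 to 1092 counts for ZNF254. In the comparison of KO with WT, 3 of the 10 genes had both KO libraries above both WT libraries (ZNF723, ZNF728 and ZNF681) and 2 had both below (ZNF675 and ZNF254). Over all tested genes, 27.7% did not overlap in the higher direction and 27.0% in the lower direction, and since the choice used this contrast nothing is read from the count. The log2 fold changes of the 9 neighbours had a median of 0.11, with 5 above and 4 below 0, beside a median of -0.002 over all tested genes.

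ZNF681 stood out among the neighbours. It had 332 and 374 counts (9.95 and 9.7 CPM) in WT and 656 and 728 counts (17.8 and 17.7 CPM) in KO. The KO level was 1.8-fold the WT level, a log2 difference of 0.85, and remained between 0.83 and 0.92 under all alternatives. ZNF681 lies 926.6 kb from ZNF723, and the genes between them showed smaller differences. ZNF728, the nearest on that side, had 13.3 ± 0.322 CPM (SD, n = 2) in KO and 12.4 ± 0.872 CPM in WT. ZNF99, the nearest on the other side, was at 3.39 ± 0.607 CPM in KO and 4.61 ± 1.95 CPM in WT, with overlapping libraries, and its log2 difference of -0.45 turned to 0.07 without WT replicate 2. The other 8 neighbours lay between -0.45 and 0.33 on the log2 scale. ZNF675 and ZNF254 differed by -0.16 and -0.07, and the sign of both turned (0.02 and 0.06) once each library was corrected for a smooth trend with the length and GC content of transcripts.

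**Figure D2:**
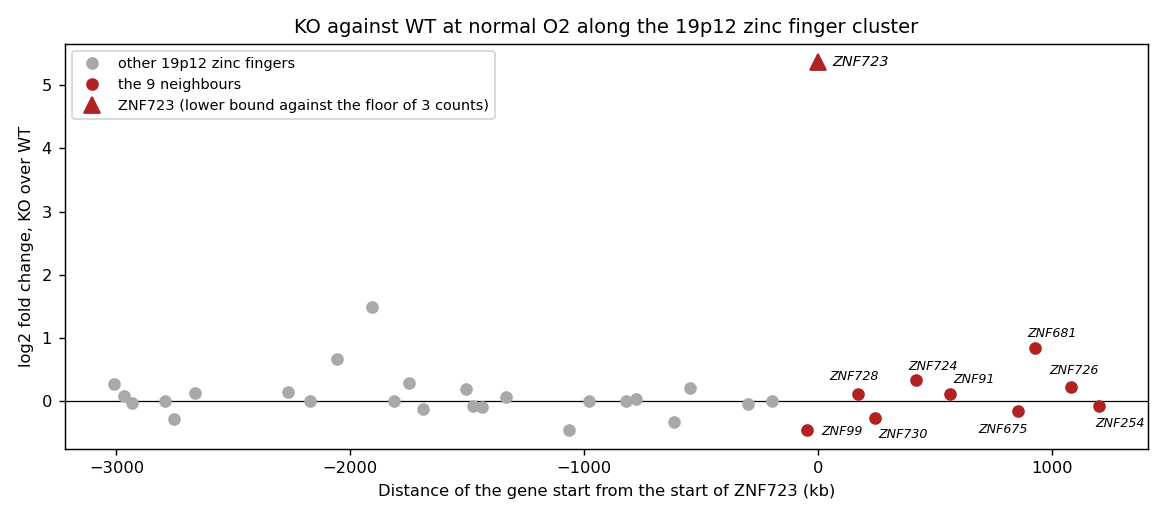
Log2 fold change of KO over WT at normal O2 (vertical axis) against the distance of each gene's start from the start of ZNF723 in kb (horizontal axis), for the 10 genes in red and 25 other zinc finger genes of 19p12 in grey. ZNF723 is drawn as a triangle at its lower bound, a 41.0-fold difference on the log2 scale, while its 9 neighbours lie between -0.45 and 0.85 and the others between -0.46 and 1.49.

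The 25 other zinc finger genes listed for 19p12 all lay on the other side of ZNF723, towards the short arm's end, and gave no call between KO and WT. With edgeR's quasi-likelihood test, 0 of the 25 had an adjusted p under 0.05, beside 1.96% of all tested genes. At an unadjusted p under 0.05 there was 1 gene, with no share over all genes taken. DESeq2 called 0, beside 824 of all 15916 tested genes. Their median log2 fold change was 0.01. The point at 1.49 in the plot along the cluster is ZNF85, named after its value was seen, and 96.44% of the 31-base words of its transcript occurred on alternate scaffolds, so its counts are uncertain.

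Over the 8 libraries, the genes most like ZNF723 in log2 CPM lay outside the cluster. Pearson's r was 0.997 for PCDHA7, a protocadherin of the clustered alpha family, 0.995 for ZNF560 and 0.993 for ZNF562, both zinc finger genes, and 0.989 for CCDC125. ZNF560 had 3 and 6 counts in WT and from 315 to 644 in KO libraries, and ZNF562 had 32 and 38 in WT and from 426 to 844 in KO libraries. The points fall into 2 clusters, the 2 WT and the 6 KO libraries, and libraries of a group share their condition. Over the same 8 libraries, r with ZNF723 was highest among the neighbours for ZNF681, at 0.96, and the other 8 ran from -0.37 for ZNF99 to 0.67 for ZNF724. Within the 6 KO libraries alone, r was 0.97 for ZNF730 and 0.90 to 0.91 for ZNF728, ZNF91, ZNF726 and ZNF254. It was 0.86 for ZNF675, 0.76 for ZNF681, 0.50 for ZNF724 and 0.08 for ZNF99. Spearman's rho over these 6 libraries was 0.94 for ZNF730, 0.77 for ZNF91 and 0.71 for ZNF726 and ZNF675. It was 0.60 for ZNF254, ZNF681 and ZNF724, 0.54 for ZNF728 and 0.09 for ZNF99. Libraries of a condition are not independent here either, and both libraries with NAC were the highest for ZNF723. The values thus restate part of the comparison with NAC below.

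With NAC, most of the 10 genes were higher than in untreated KO cells. By edgeR's quasi-likelihood test at an adjusted p under 0.05, 7 rose and 0 fell, whereas 23.8% of all tested genes were called higher and 20.8% lower. The 7 were ZNF675, ZNF254, ZNF723, ZNF730, ZNF726, ZNF681 and ZNF728. The median log2 fold change of the 10 was 0.56, beside 0.023 over all tested genes. Both libraries with NAC were above both untreated KO libraries for 8 of the 10, against 36.2% of all tested genes.

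ZNF675 rose most. It had 392 and 491 counts (10.6 and 11.9 CPM) in KO and 1035 and 833 counts (27.0 and 27.8 CPM) with NAC. The groups were well apart, with a log2 fold change of 1.28 (SE 0.17, 95% interval 0.91 to 1.65, edgeR adjusted p = 9.93e-05). ZNF254 went from 31 and 29.7 CPM to 52.2 and 61.5 CPM, a log2 fold change of 0.90 (SE 0.11, 95% interval 0.67 to 1.14, edgeR adjusted p = 5.7e-05). This gene, the most abundant of the 10 per length, had the lowest adjusted p-value among them.

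ZNF723, already on in KO, rose further, by 0.86 on the log2 scale (SE 0.26, 95% interval 0.29 to 1.44, edgeR adjusted p = 0.0196). ZNF730 went from 5.10 and 5.64 CPM to 9.14 and 10.3 CPM, with a log2 fold change of 0.86 (SE 0.21, edgeR adjusted p = 0.00556). ZNF726 went from 6.04 and 5.56 CPM to 7.49 and 10.6 CPM, with a log2 fold change of 0.64 (SE 0.22, edgeR adjusted p = 0.0335). In these 3 genes both libraries with NAC were above both untreated ones, and the libraries with NAC were further from each other than the untreated ones were. ZNF681 rose less, from 17.8 and 17.7 CPM to 23.3 and 26.7 CPM, a log2 fold change of 0.49 (SE 0.13, edgeR adjusted p = 0.00732). ZNF728 was nearest to the threshold, with 13.5 and 13.1 CPM against 16.4 and 18.0 CPM and a log2 fold change of 0.37 (SE 0.14, edgeR adjusted p = 0.0446). This call of ZNF728 was lost with RLE normalization (adjusted p = 0.0643), upper quartile normalization (0.0533), DESeq2 (0.0781) and in every edgeR fit that left out a library other than NAC replicate 1, and 6 of the 10 genes were called by RLE, upper quartile or DESeq2.

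The other 3 genes did not pass. For ZNF91, a silencer of SVA elements, the levels were 16.1 and 18.0 CPM in KO and 17.6 and 23.2 CPM with NAC. Its log2 fold change was 0.26 (95% interval -0.07 to 0.58, edgeR adjusted p = 0.191). The 95% interval was -0.25 to 0.66 for ZNF724 and -0.90 to 0.78 for ZNF99, so that neither a rise nor a fall of moderate size can be told from no difference in these libraries. ZNF99 had 141 and 122 counts in KO and 87 and 128 with NAC.

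GC content moved with these values. The canonical transcripts of the 10 genes were from 33.24% to 39.96% GC, and the median over tested genes was 49%. Over 14828 tested genes with a known length and GC content, the log2 fold change with NAC had a Spearman's rho of -0.50 with GC content and -0.26 with length, a description across genes that share the same 4 libraries. Of the 2305 tested genes in the GC range of the 10, themselves left out, 55.7% were called higher with NAC and 2.52% lower, and their median log2 fold change was 0.52. After a smooth trend on length and GC content was removed from each library, 1 of the 10 genes was called higher, ZNF675, with a log2 fold change of 0.43 (edgeR adjusted p = 0.0435), beside 15.4% of the 14828 genes. The median of the 10 was then -0.02, from -0.41 in ZNF99 to 0.43 in ZNF675. ZNF723 was at 0.10 and ZNF254 at 0.13 in that fit. Whether the trend came from RNA, library preparation or the cells was not tested.

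**Figure D3:**
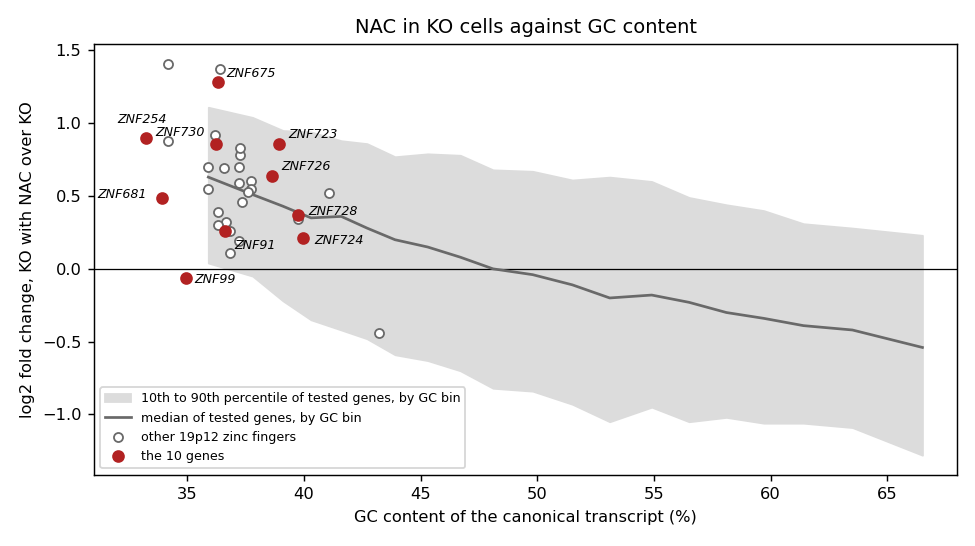
Log2 fold change of KO with NAC over KO at normal O2 (vertical axis) against the GC content of the canonical transcript in percent (horizontal axis). The grey line and band give the median and the 10th to 90th percentile of tested genes in 20 bins of GC content, and points are the 10 genes (red) and 25 other 19p12 zinc fingers (open). The median falls from 0.63 in the bin with the lowest GC content to -0.54 in the highest, and the 10 genes lie at the low end of GC content on both sides of the line.

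The calls with NAC also depended on single libraries. Calls over all genes moved as well when a library was left out. Counts of calls without a library, here and below, are thus not read as a result about these genes. Without NAC replicate 1, the one with fibroblast and mesenchymal transcripts, 8 of the 10 genes were called, ZNF91 among them at an edgeR adjusted p of 0.0206, and the median log2 fold change was 0.73. Without that library the log2 fold changes were 1.09 for ZNF723, 1.30 for ZNF675, 1.02 for ZNF254, 0.94 for ZNF730, 0.87 for ZNF726, 0.59 for ZNF681 and 0.43 for ZNF728, each at least as large as with it. With the trend also removed, 1 gene was called, again ZNF675, and the median was 0.10. Without KO replicate 1, 2 genes were called (ZNF675 and ZNF254), without KO replicate 2 these and ZNF730, and without NAC replicate 2 those 3 and ZNF681.

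At 5% O2 no gene of the 10 passed the test against KO cells at normal O2. By edgeR's quasi-likelihood test, 0 of the 10 had an adjusted p under 0.05, against 7.81% of all tested genes (3.68% higher and 4.13% lower). An unadjusted p under 0.05 was seen for 2, with no share over all genes taken, so nothing is read from that count. The median log2 fold change was 0.03, with 5 genes above and 5 below 0. Both libraries at 5% O2 were above both at normal O2 for 3 of the 10 (30.7% of all tested genes) and below for 2 (30.3%). ZNF723 had a log2 fold change of -0.04, with a 95% interval of -0.63 to 0.54, so that a rise or fall of up to about that size cannot be told from no difference.

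ZNF675 was the gene nearest to a call at 5% O2. It had 791 and 434 counts (19.4 and 13.5 CPM) at 5% O2 against 392 and 491 (10.6 and 11.9 CPM) at normal O2, a log2 fold change of 0.55 (SE 0.17, edgeR adjusted p = 0.0675). Both libraries at 5% O2 were above both at normal O2, but replicate 1 was well above replicate 2. DESeq2 called this gene (adjusted p = 0.0279), as did edgeR without replicate 2 at 5% O2 (0.0358) or without either library with NAC (0.0284 and 0.028, as adjusted p-values). With the length and GC trend removed its log2 fold change was 0.22, and the edgeR adjusted p = 0.458. ZNF681 went from 17.8 and 17.7 CPM to 23.1 and 21.1 CPM, with a log2 fold change of 0.32 (95% interval 0.04 to 0.59, edgeR adjusted p = 0.141). Across all genes, the changes at 5% O2 had a Spearman's rho of -0.34 with GC content.

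Compared directly, 6 of the 10 genes were higher with NAC than at 5% O2 and 0 were lower by edgeR's adjusted p, beside 15.5% and 13.6% of all tested genes. This comparison uses the same libraries with NAC and at 5% O2 as the comparisons above, which in turn share both untreated KO libraries, so the 3 are not independent. The 6 were ZNF726, ZNF723, ZNF730, ZNF675, ZNF254 and ZNF728. The call of ZNF728 (log2 fold change 0.42, edgeR adjusted p = 0.0374) was lost with RLE normalization (0.0516) and DESeq2 (0.0532), each of which called 5 genes, and in 7 of the 8 edgeR fits that left out a library. ZNF726 differed most, with 7.49 and 10.6 CPM with NAC against 4.66 and 4.71 CPM at 5% O2, a log2 fold change of 0.95 (SE 0.22, edgeR adjusted p = 0.00876). For ZNF723 the log2 fold change was 0.91 (SE 0.26, edgeR adjusted p = 0.0247), and both of its libraries with NAC were above both at 5% O2. ZNF681 differed by 0.17 (95% interval -0.10 to 0.45, edgeR adjusted p = 0.331). Spearman's rho with GC content was -0.41 here, and with the trend removed 0 of the 10 genes were called, while 8.08% of all genes were called higher, and the median was 0.11. Without replicate 1 at 5% O2, 3 genes were called, without replicate 2 at 5% O2, 1 gene (ZNF254), without NAC replicate 2, 4 genes, and without NAC replicate 1, 7 genes. With NAC replicate 1 left out and the trend removed as well, 1 gene was called (ZNF726).

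**Figure D4:**
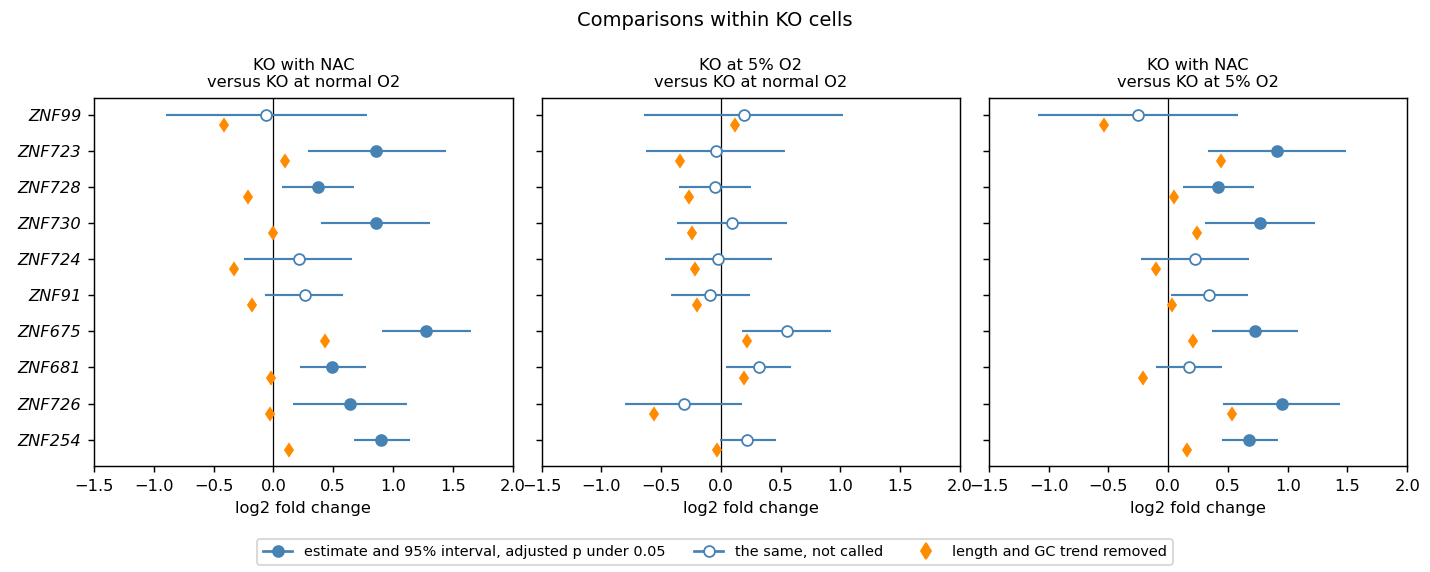
Log2 fold changes (horizontal axes) of the 10 genes, in chromosomal order, in the 3 comparisons among KO cells, with 95% intervals from edgeR, filled where the adjusted p is under 0.05, and orange diamonds for the estimate with the length and GC trend removed. With NAC against normal O2, 7 points are filled and 9 lie above 0, while the diamonds centre on a median of -0.02, and at 5% O2 no point is filled.

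Of the 25 other zinc finger genes of 19p12, 15 rose with NAC and 0 fell by edgeR's adjusted p, beside 23.8% and 20.8% of all tested genes and 55.7% and 2.52% of genes in the GC range of the 10, with a median log2 fold change of 0.55. The leading ones were ZNF100, with 21 and 29 counts in KO against 61 and 54 with NAC (log2 fold change 1.41), ZNF257 with 738 and 811 against 1304 and 1224 (0.92), and ZNF493 with 416 and 411 against 641 and 669 (0.88). Their median transcript GC content was 36.8%. With the trend removed 2 were called higher, beside 15.4% of all 14828 genes in that fit, and the median was 0.06. Without NAC replicate 1, 20 were called. At 5% O2, 0 were called by edgeR, beside 7.81% of all tested genes. DESeq2 called 2, beside 1955 of all 15916 tested genes. An unadjusted edgeR p under 0.05 was seen for 5, with no share over all genes taken, so nothing is read from that count. Against 5% O2, 9 rose with NAC (15 without NAC replicate 1), beside 15.5% of all tested genes, led by ZNF492 (0.76), ZNF43 (0.65) and ZNF430 (0.63). Words on alternate scaffolds made up most of the transcripts of ZNF100 and ZNF43, so their counts are uncertain. Genes named ZNF outside 19p12 had a higher median GC content of 43.5%, and of 419 tested 129 were called higher and 70 lower with NAC (110 and 70 without NAC replicate 1), with a median log2 fold change of 0.24. The difference between 19p12 and the rest was not tested.

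The genes for the corepressors that KRAB zinc finger proteins work with changed in both directions with NAC. Of 25 tested genes in this list, 6 rose and 12 fell by edgeR's adjusted p, beside 23.8% and 20.8% of all tested genes, and without NAC replicate 1, 6 rose and 13 fell. CHD3, a remodeller of the NuRD complex, had 4342 and 4733 counts in KO and 1277 and 1103 with NAC (log2 fold change -1.73, SE 0.12). EHMT1, a histone H3 lysine 9 methyltransferase, fell by 1.11 on the log2 scale, and DNMT1, the maintenance DNA methyltransferase, fell by 1.07. The largest increases were in CBX3, a heterochromatin protein of the HP1 family (1.01), PPHLN1, a subunit of the HUSH complex (0.73), and the deacetylase HDAC1 (0.44). With the length and GC trend removed, 3 rose and 12 fell, beside 2286 higher and 1634 lower of all 14828 genes in that fit. CHD3, EHMT1 and DNMT1 were then at -1.06, -0.56 and -0.57, whereas CBX3 was at 0.05.

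At 5% O2, 1 of the 25 corepressor genes rose (CBX3, 0.47) and 4 fell by edgeR's adjusted p, beside 3.68% and 4.13% of all tested genes. The largest decreases were in CHD3 (-0.47), EHMT1 (-0.47) and UHRF1, a partner of DNMT1 (-0.46). With the trend removed, 0 of these 5 calls held, beside 272 genes called higher and 51 lower of all 14828 in that fit. Of all tested genes, 15.5% were called higher and 13.6% lower with NAC than at 5% O2. Against 5% O2, 3 rose and 12 fell with NAC (4 and 13 without NAC replicate 1), led by PPHLN1 (0.60), CBX3 (0.54) and HDAC1 (0.32) and by CHD3 (-1.26), CBX5, another HP1 protein (-0.91), and DNMT3B, a de novo DNA methyltransferase (-0.82). Between KO and WT, 1 gene of the list was called by edgeR's adjusted p, beside 1.96% of all tested genes. This was CHD3, which had 2351 and 2409 counts in WT against 4342 and 4733 in KO. Its log2 fold change was 0.81 (SE 0.12, edgeR adjusted p = 0.0054), and 0.65 with the trend removed. DESeq2 called 3 genes of the list in this comparison, beside 824 of all 15916 tested genes.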

How the data were processed

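RNA was extracted from WA26 hESCs and libraries were built from total RNA with the Illumina TruSeq RNA kit. The authors used trim-galore for trimming, hisat2 for alignment to hg38 and featureCounts with default parameters for counting. The deposited values are raw, unnormalized counts of reads per gene. The labels also name FastQC 0.11.9. The annotation used for counting is not given in the sources used here. From 66.6% to 70.7% of counts between 1 and 20 were even, so many fragments may have been counted once for each mate. All 8 columns were mapped to samples by name. Treated WT samples (4 in the labels) are not analysed here.

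Genes were filtered with filterByExpr (minimum count 10) of edgeR 4.0.16 in R 4.3.3, normalized by TMM and tested by the quasi-likelihood test with one term per group over all 8 libraries (4 residual degrees of freedom). Benjamini-Hochberg adjustment covered all 15916 tested genes, and calls are at 0.05. SEs are the absolute log2 fold change over the square root of F. The biological coefficient of variation was 13.7%, and chi-square per degree of freedom within pairs of replicates ran from 9.32 to 30.5, above sampling noise. CPM use TMM library sizes and RPKM the canonical GENCODE transcript. Floors are 3 counts per library. On simulated counts of these 4 groups with 200 changed genes, 190 were recovered and 12 unchanged genes were called among 15677 tested. The changed genes were drawn above a minimum level. These simulated counts held no trend with GC content and no outlying library, so they do not give the rate of false calls with NAC.

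The 10 genes and all lists were chosen with earlier results of these data known. The named genes were all 10, the 5 genes with the highest r with ZNF723 (1 of them is not reported here), at most 3 genes per direction, comparison and list by fold change among those called, and UBQLN1. Alternatives were RLE and upper quartile normalization, 2 other filters, DESeq2 1.42.0, a replicate block, a fit of only the libraries compared, calls by an absolute log2 fold change over 1 with unadjusted p, leaving out each library, and correction of each library for a smooth trend with the length and GC content of its transcripts (mgcv 1.9.3, 93.2% of tested genes had both). Added after seeing the data was this correction without NAC replicate 1. FAM208A in the corepressor list was not found under that symbol.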

Additional observations from a re-analysis of the deposited data

How the results depend on the processing

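The bound for ZNF723 over WT, with every count taken as a separate fragment, ranged from 40.4-fold to 49.5-fold in KO. It ranged from 38.7-fold to 48.9-fold at 5% O2 and from 66.5-fold to 96.7-fold with NAC. For single genes in the tested comparisons, 427 of the alternative values kept direction and side of the threshold. Without a turn of sign, 76 lost and 8 gained the call. A further 26 turned sign, and some of these lost the call as well. The cause of these changes was not tested. Calls over all genes were 7100 with NAC, 1243 at 5% O2, 4635 between these and 312 between KO and WT.

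With the length and GC trend removed these became 3920, 323, 2444 and 179, and the members called became 1 of 10 with NAC and 0 between the treatments. With NAC replicate 1 left out as well, they were 4259, 3014 and 1193 for NAC, between the treatments and KO against WT, with 1 member called with NAC and 1 between the treatments. By a fold change over 1 with unadjusted p, the calls were 1435 with NAC, 321 at 5% O2 and 703 between the treatments, with 1 and 0 members with NAC and between the treatments. At 5% O2, calls were 2220 (members 1) without a filter, 1955 (members 1) with DESeq2 and 3009 (members 1) with only the libraries compared. This last setting gave 3050 between the treatments. For KO against WT, no filter, DESeq2 and only the libraries compared gave 1252, 824 and 1124.

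Leaving out 1 library gave from 5031 to 7591 calls (members 2 to 8) with NAC, from 36 to 2763 (members 0 to 1) at 5% O2, from 1354 to 5468 (members 1 to 7) between the treatments and from 64 to 1311 for KO against WT. A group left with 1 library was assumed to vary like the others. At 5% O2 the lowest count was without replicate 1 at 5% O2, and leaving out NAC replicate 1 or 2 gave 2763 or 2746 there and 1311 or 1306 for KO against WT.

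With the trend removed, the sign turned with NAC for ZNF724 (-0.33), ZNF726 (-0.03), ZNF728 (-0.21), ZNF91 (-0.18) and ZNF681 (-0.02), at 5% O2 for ZNF730 (-0.24) and ZNF254 (-0.03), and between the treatments for ZNF724 (-0.10) and ZNF681 (-0.21). With NAC replicate 1 left out too, it turned for ZNF724 (-0.36) and ZNF728 (-0.12) with NAC, ZNF730 (-0.23) and ZNF254 (-0.02) at 5% O2, and ZNF724 (-0.14) and ZNF681 (-0.11) between the treatments. Leave-one-out ranges that crossed 0 were, with NAC, ZNF99 from -0.58 to 0.33. At 5% O2 they were ZNF723 from -0.22 to 0.11, ZNF724 from -0.33 to 0.23, ZNF730 from -0.09 to 0.24 and ZNF99 from -0.24 to 0.52. Between the treatments they were ZNF724 from -0.03 to 0.54 and ZNF99 from -0.77 to 0.18, and for KO against WT, ZNF99 from -0.82 to 0.07.

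No pairing of samples by replicate number was seen, with correlations of deviations between groups from -0.02 to 0.08. Whether libraries of the same number shared a clone or a batch was not tested. The replicate block gave 7173 calls with NAC, 1417 at 5% O2, 4796 between the treatments and 366 for KO against WT, with 6, 0 and 6 members in the first 3. With 2 libraries a group, the intervals were widest for ZNF99 and ZNF723, which had the lowest counts.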
